A study of Arabidopsis thaliana with 12 samples.

Results

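Photosystem I is the thylakoid complex that takes electrons from plastocyanin in the lumen and passes them to ferredoxin in the stroma. PSAN (AT5G64040), a nuclear gene, codes for a small photosystem I subunit that sits on the lumen side of the complex and aids the transfer of electrons from plastocyanin. PYG7 (AT1G22700), also nuclear, codes for a thylakoid membrane protein that is needed for photosystem I to be assembled and kept, but is not a subunit of it. Photosystem I can be damaged when electrons arrive faster than they can leave, but damage was not measured here. The transcripts of these 2 genes were followed here. They were chosen by name as the photosystem I genes with a probe assigned by the platform annotation to that gene alone, which made 2 of 691 such genes on an array of 3439 probes. Earlier results of these data were known when the choice was made.

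The study measured total RNA of wild-type *Arabidopsis thaliana* plants, ecotype Columbia 0, in 12 samples on arrays. The control group of 6 samples came from plants kept in growth light of 80 µE, labelled 0 h. The recovery group of 6 samples came from plants given 1000 µE for 1 h and then put back at 80 µE, for 2 h by the titles and 1 h by the source names, a disagreement that was not settled. The labels name no mutation, transgene or chemical in either group, and no organ or plant age. Sampling time, and with it time of day, may differ between the groups and cannot be told apart from the light treatment.

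The table holds linear intensities, with column medians from 0.196 to 0.458 and 4.97% to 11.1% of probes listed at 0. They were quantile-normalised, set to a floor of 0.0298 (-5.07 on the log2 scale) where lower, and taken to log2. A level of one probe cannot be set against that of another, so each gene is described against its own values and against the floor. Within a group the samples fell into pairs by their numbers, 1 with 2, 3 with 4 and 5 with 6, with log2 correlations of 0.853 to 0.942 within pairs and 0.683 to 0.824 between them. No label tells whether the samples stem from different plants, so the p-values cover the spread among these samples alone, some of which may be technical. Samples 3 and 4 stood apart. Across all features their differences between recovery and control correlated at -0.03 and -0.01 with those of the other pairs, which correlated at 0.50 with each other. The main comparisons are therefore also given without them.

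Over all 12 samples neither gene passed the test, yet both showed the same order by pair. PSAN and PYG7 were lower in recovery than in control plants in the first and the last pair, samples 1 and 2 and samples 5 and 6, and higher in the middle pair, samples 3 and 4. For PSAN the pair differences were -0.55, 1.03 and -0.40 on the log2 scale, and for PYG7 they were -1.39, 3.22 and -0.71, in the order of the pairs. The 3.22 is set by the floor, at which the PYG7 signal of control 3 and 4 stood. The PYG7 difference in samples 5 and 6 had the opposite sign on the values as deposited, where it was 0.31.

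PSAN gave a signal far above the floor in every sample. In control samples 1 to 6 its deposited intensity was 7.50, 8.74, 6.34, 4.79, 8.03 and 9.16. In recovery samples 1 to 6 it was 4.76, 5.50, 11.5, 9.84, 6.97 and 5.23. The highest values of the series were thus those of recovery 3 and 4, and control 4 lay among the lowest, beside recovery 1. After normalisation the lowest PSAN value, that of control 4, was still 146 times the floor.

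On the log2 scale PSAN was 2.80 ± 0.38 (SD, n = 6) in control and 2.83 ± 0.49 (SD, n = 6) in recovery samples. The control values ran from 2.12 to 3.12 with a median of 2.93 and the recovery values from 2.32 to 3.53 with a median of 2.70, so the groups overlapped, as they did for all but 4.42% of features. The difference, recovery minus control, was 0.03 with a standard error of 0.26 (limma, adjusted p = 0.974). In this fit 3.03% of all 3438 features passed at an adjusted p under 0.05, 1.19% higher and 1.83% lower in recovery plants. Its 95% interval ran from -0.54 to 0.59, that is from 1.46-fold higher in control to 1.51-fold higher in recovery plants. An exact two-sided permutation test over the 12 samples, which does not keep the pairs together, gave p = 0.918, and the same test over the 3 pair means of each group gave p = 0.900, where 0.1 is the smallest it can give.

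The small mean difference of PSAN was the balance of unlike pairs and not of like values. In samples 1 and 2 the normalised log2 values were 2.90 and 3.08 in control against 2.32 and 2.56 in recovery plants, a level 1.47-fold higher in control plants. In the last pair they were 2.95 and 3.12 in control against 2.85 and 2.42 in recovery plants, 1.32-fold higher in control plants. In the middle pair the order was turned, with 2.62 and 2.12 in control against 3.53 and 3.27 in recovery plants, 2.04-fold higher in recovery plants. In none of the pairs did the control and recovery values of PSAN overlap, which held for 27.9% of all features. By replicate number, recovery was below control for 4 of 6 numbers.

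**Figure D1:**
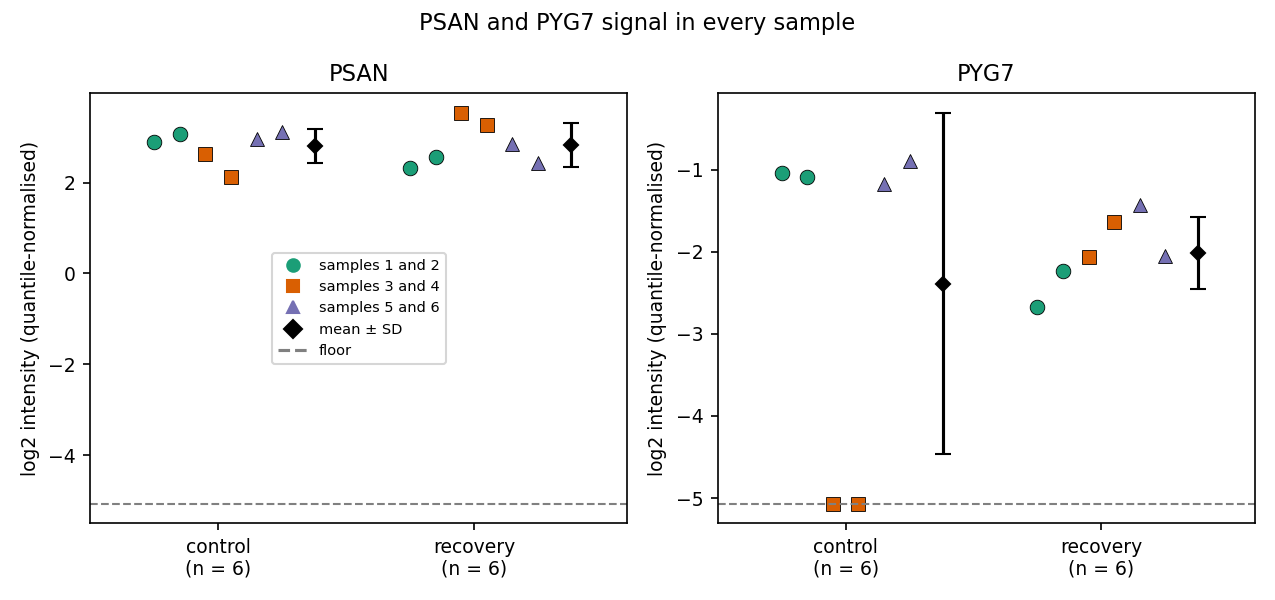
Quantile-normalised log2 intensity of PSAN (left) and PYG7 (right) in each control and recovery sample, with symbols for the pairs of samples, diamonds with bars for mean ± SD (n = 6) and a dashed line for the floor of -5.07. The y axes differ between the panels. PSAN lies well above the floor everywhere, and PYG7 stands at the floor in control 3 and 4 only.

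PYG7 stood at the floor in some control samples, and its spread in control plants was wide. In control samples 1 to 6 its deposited intensity was 0.480, 0.456, 0.0035, 0, 0.315 and 0.384. In recovery samples 1 to 6 it was 0.266, 0.342, 0.153, 0.214, 0.523 and 0.357. Control 3 was thus close to 0 and control 4 was listed at 0, while no recovery sample fell below 0.153. After normalisation control 3 and 4 stood at the floor and the other 10 samples lay at 5.25 to 18.1 times it.

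On the log2 scale PYG7 was -2.39 ± 2.08 (SD, n = 6) in control and -2.01 ± 0.44 (SD, n = 6) in recovery samples. Control values ran from -5.07 to -0.89 with a median of -1.13, and recovery values from -2.67 to -1.42 with a median of -2.06, so that the recovery values lay wholly inside the control range. The difference was 0.37 with a standard error of 0.80 (limma, adjusted p = 0.846). Its 95% interval, -1.38 to 2.13, allows anything from 2.61-fold higher in control to 4.37-fold higher in recovery plants. The exact permutation test gave p = 0.593 over the 12 samples and p = 1 over the pair means. The mean of PYG7 was higher in recovery plants and its median lower, since control 3 and 4 pull the control mean down. The standard error was larger than that of 95.4% of all features, while that of PSAN was larger than that of 20.2%, with a median of 0.42 over all features.

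Within the pairs, PYG7 in samples 1 and 2 had log2 values of -1.03 and -1.08 in control against -2.67 and -2.23 in recovery plants, 2.63-fold higher in control plants. On the deposited values the means of samples 1 and 2 were 0.468 in control and 0.304 in recovery plants, 1.54-fold higher in control plants. In samples 5 and 6 the values were -1.17 and -0.89 in control against -1.42 and -2.05 in recovery plants, 1.63-fold higher in control plants. On the deposited values the mean of these samples was 0.350 in control and 0.440 in recovery plants, so the direction there depends on the scaling. Without normalisation the median difference of all features was 0.90 on the log2 scale in that pair and 0.56 in samples 1 and 2, against 0 after quantile normalisation in both. In samples 3 and 4 recovery plants had -2.06 and -1.64 against the floor in control plants. The direction there was the same under every scaling tried, with a log2 difference from 1.75 with a pseudocount to 5.60 with a lower floor.

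**Figure D2:**
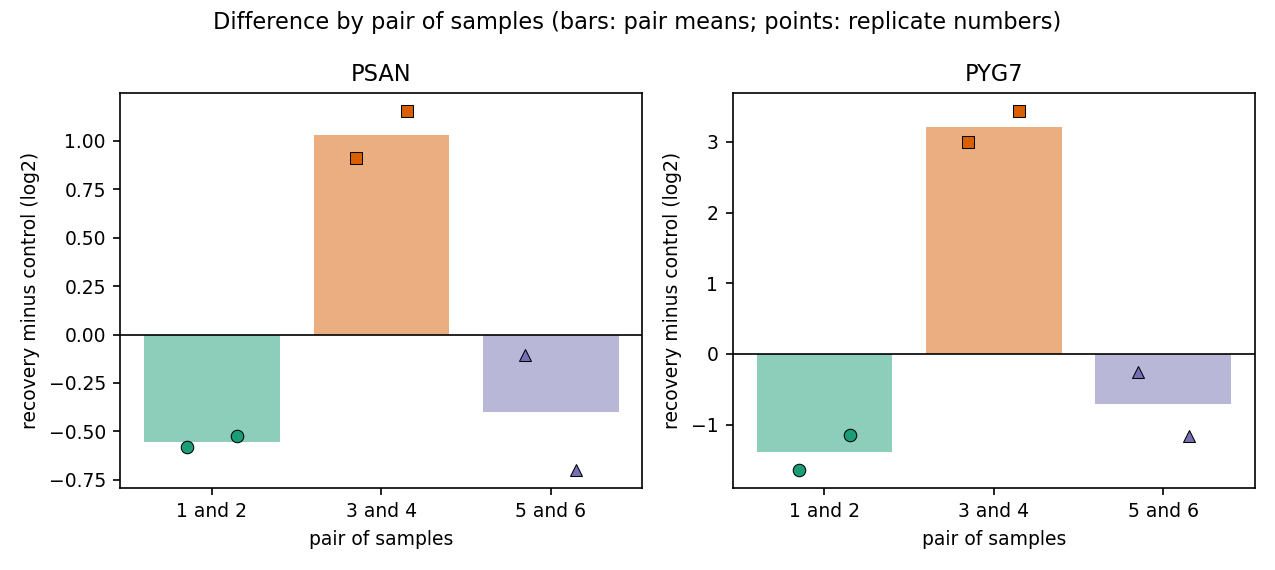
Recovery minus control on the log2 scale for PSAN (left) and PYG7 (right) by pair of samples. Bars show pair means and points the 2 replicate numbers of each pair; the y axes differ. Both genes lie below 0 in the first and the last pair and above 0 in the middle pair, where PYG7 reaches 3.22 against controls at the floor.

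The difference between the pairs was tested with a group by pair interaction, which sets it against the spread within pairs. PSAN passed (limma F test, adjusted p = 0.0206), as did PYG7 (limma F test, adjusted p = 5.8e-04). The PYG7 test rested on a spread within pairs that counts control 3 and 4, both at the floor, as equal. With the floor at the 1st percentile its F fell from 85.7 to 10.5 (limma F test, adjusted p = 0.0391). The same test called 24.9% of all 3438 features, 857 in number, so a change that differs between pairs is common on this array. Samples 3 and 4 were higher and both other pairs lower in recovery plants for 13.4% of all features. Both this order and a passed interaction test were found for 5.79% of all features. If the samples of a pair are repeat readings of 1 RNA, these p-values describe single RNA samples and not the treatment. Without samples 3 and 4 the interaction of the other 2 pairs did not pass for PSAN (limma, adjusted p = 0.864) or PYG7 (limma, adjusted p = 0.481).

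**Figure D3:**
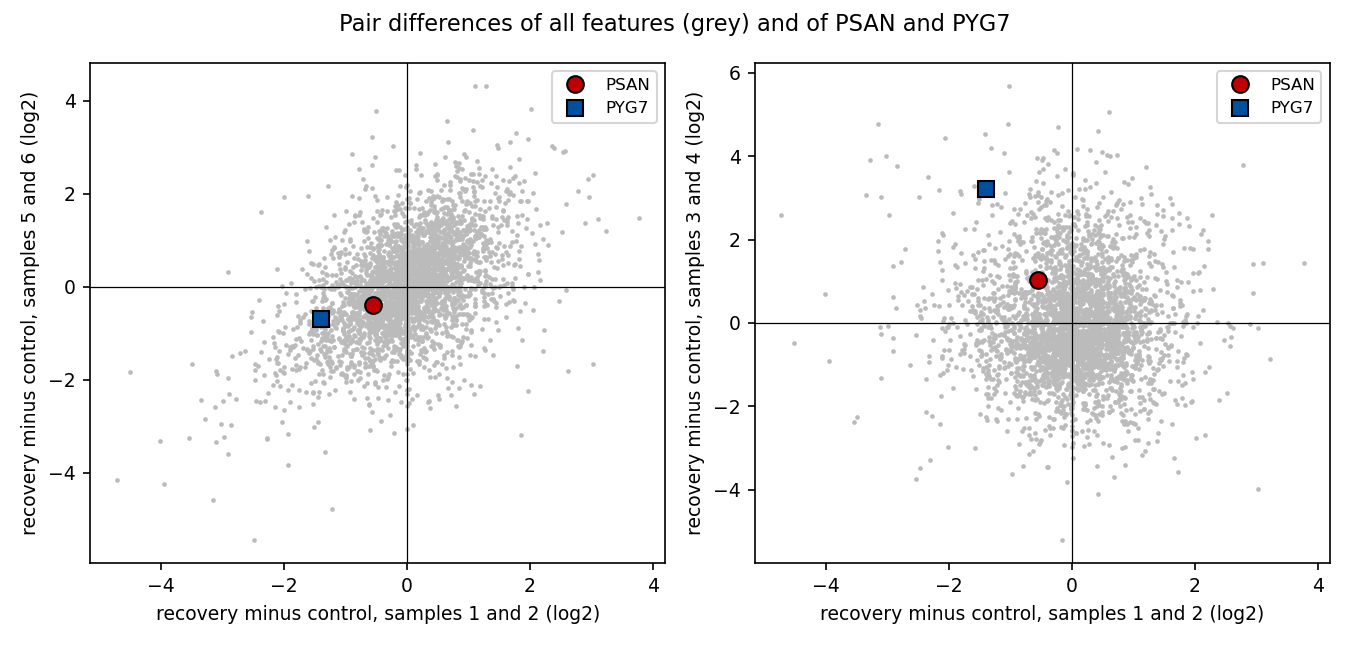
Recovery minus control on the log2 scale in samples 5 and 6 (left) and in samples 3 and 4 (right), each against samples 1 and 2, for all 3438 features (grey), PSAN (circle) and PYG7 (square). Both genes lie in the lower left of the left panel and the upper left of the right panel, in which the correlation over all features was -0.03.

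With samples 3 and 4 left out of both groups, 4 control and 4 recovery samples remained and both genes were lower in recovery plants. For PSAN the log2 difference was -0.48 with a standard error of 0.15, a 95% interval of -0.83 to -0.12 and a limma adjusted p of 0.0890, so it did not pass. For PYG7 it was -1.05 with a standard error of 0.26, an interval of -1.66 to -0.44 and a limma adjusted p of 0.0433. In this fit 12.1% of all features passed, 6.20% being lower in recovery plants, against 3.03% over all 12 samples. The control and recovery values of these 8 samples did not overlap for either gene, which held for 20.7% of all features. An exact permutation test gave p = 0.0286 for each gene, the smallest that 4 against 4 can give. This value follows from the lack of overlap and adds nothing to it. The samples left out were the only pair in which both genes were higher in recovery plants. Exact sign flips over the 4 replicate numbers, which keep the numbers paired, gave p = 0.125 for each, again the smallest possible. Both tests count the samples of a pair as independent. The pairs that remain are too few for a test over pair means to give a small p.

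Neither result without samples 3 and 4 held under every setting. For PYG7 the adjusted p of limma no longer passed when the replicate number entered as a block (0.0710), with the pair of samples as a random block (0.140), with the floor at the 1st percentile (0.0589) and on the values as deposited, where the difference was -0.16 (0.635). It passed after median centring (0.0205), cyclic loess (0.0295) and with a pseudocount (0.0356), and stood at 0.049988 when the 8 samples were normalised again. With 1 more sample left out in turn it passed in 1 of 8 fits, that without recovery 5 (adjusted p from 0.0205 to 0.102). PSAN, by contrast, passed on the values as deposited (difference -0.58, adjusted p = 0.0294) and after median centring (-1.48, adjusted p = 0.00497), and not after cyclic loess (-0.52, adjusted p = 0.138). PSAN was lower in recovery plants under each of these settings. Median centring divides recovery samples 1, 2, 5 and 6 by column medians of 0.426 to 0.458 and their controls by 0.200 to 0.284.

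**Figure D4:**
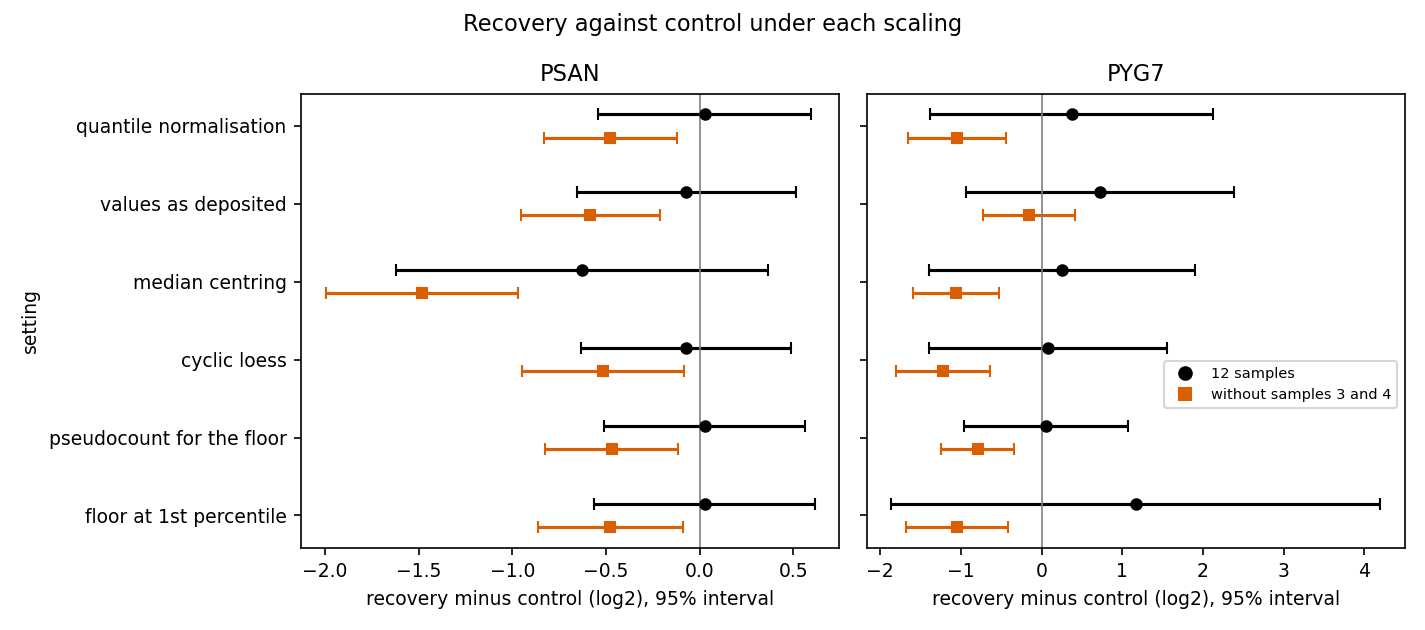
Recovery minus control on the log2 scale with its 95% interval for PSAN (left) and PYG7 (right) under 6 ways of scaling or treating low values, over 12 samples (black circles) and without samples 3 and 4 (orange squares). The x axes differ. Over 12 samples every interval holds 0, and without samples 3 and 4 every PSAN interval lies below 0, as do those of PYG7 except on the values as deposited.

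Whether the 2 genes changed unlike each other was tested on the difference of their log2 values within each sample, which compares changes and not levels. Over the 12 samples the change of PSAN minus that of PYG7 was -0.35 (exact two-sided permutation test, p = 0.597, and p = 1 over the pair means). By pair it was 0.84, -2.19 and 0.30, the middle value being bounded by the floor. Without samples 3 and 4 it was 0.57, that is a smaller fall of PSAN (exact permutation test, p = 0.0286, the smallest possible), while exact sign flips over the 4 replicate numbers gave p = 0.125 and cannot go lower. Both tests again count the samples of a pair as independent. On the values as deposited that difference was -0.42 (exact permutation test, p = 0.0857), so which gene fell more depends on the scaling.

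Across samples PSAN and PYG7 followed each other in part. Their quantile-normalised log2 values correlated at r = 0.61 over the 12 samples and at r = 0.96 over the 8 samples without samples 3 and 4. These points share array, pair and group, so the values are a description. Neither correlation was computed under another scaling. Among the 8 samples both normalised values were highest in control 6. As deposited, PSAN was highest in control 6 (9.16) and PYG7 in recovery 5 (0.523). Among 558 genes with a probe of their own and above the floor in at least 10 samples, those most like PSAN over the 12 samples were AT5G39980 (r = 0.79), the cyanase gene CYN (AT3G23490, 0.78), AT5G19900 (0.77), AT5G17840 (0.76) and AT4G08940 (0.75). For CYN the value without samples 3 and 4 was again 0.78, and for AT5G17840 it was 0.40. The likenesses also depended on the scaling, since on the values as deposited those of AT5G19900, AT5G17840 and AT4G08940 were 0.38, 0.30 and 0.40, and after median centring those of AT5G39980 and AT5G17840 were 0.54 and 0.36. Of these 5 genes, AT5G39980, CYN and AT5G19900 were also higher in recovery plants in samples 3 and 4 and lower in both other pairs. That order held for 13.4% of all features. The genes were picked by their correlation with PSAN over these same samples, so a shared order is partly built in. None of the 5 passed the test of recovery against control over 12 samples (limma, adjusted p from 0.465 to 0.966).

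The genes most like PYG7 were the lactate dehydrogenase gene AT4G17260 (r = 0.91), CRR41 (AT1G51100, 0.91), AT2G28540 (0.90), PSBW (0.89) and AT4G32060 (0.88). CRR41 is known as a factor for assembling the chloroplast NAD(P)H dehydrogenase-like complex, which takes part in cyclic electron flow around photosystem I. Without samples 3 and 4 of both groups these correlations were lower, at 0.45, 0.21, 0.51, -0.03 and 0.19 in the same order. After median centring of the 12 samples that of PSBW was 0.58. None of these 5 genes passed the test over 12 samples either (limma, adjusted p from 0.434 to 0.830).

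The other genes of the complex could not be followed in the same way. Of 33 genes in the lists of photosystem I subunits, assembly factors and antenna proteins, PSAN and PYG7 were the 2 with a probe of their own, 1 more was assigned a probe together with another gene and 30 were not analysed here. Of 11 genes for electron carriers next to photosystem I and 3 for the thylakoid twin-arginine import system, none had a probe of its own. The count of list members past the test in either direction was thus 0 of 2 over the 12 samples with limma (0 of 2 at an unadjusted p under 0.05), beside 3.03% of all features (18.3% at an unadjusted p under 0.05).

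Photosystem II, which splits water upstream of photosystem I, had 5 of 20 list genes with a probe of their own, and 0 of 5 passed over the 12 samples with limma (0 of 5 at an unadjusted p under 0.05), again beside 3.03% and 18.3% of all features. PSBW (AT2G30570), a small membrane subunit, was also higher in recovery plants in samples 3 and 4. Its pair differences were 0.00, 1.22 and -0.16 on the log2 scale, and it passed the interaction test (limma, adjusted p = 0.00880). On the deposited scale PSBW went from 39.5 and 42.1 in control 1 and 2 to 28.4 and 30.3 in recovery 1 and 2, so that its 0.00 came from equal ranks among the brightest probes. In control 3 and 4 it stood at 16.0 and 14.1, the lowest of its 12 values, as PYG7 did.

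The antenna gene LHB1B2 (AT2G34420) had pair differences of -0.14, 0.48 and 0.37, and the interaction test was not passed (limma, adjusted p = 0.0744). On the quantile-normalised values the remaining 3 genes did not share the turn. PSBY (AT1G67740), a small subunit, had pair differences of -0.39, -0.41 and -0.52. PSB27 (AT1G03600), a lumenal protein for assembly and repair, had -1.76, -1.11 and -0.64, and it passed the comparison of the groups once the replicate number was a block (limma, adjusted p = 0.0492). Its log2 values lay far apart within samples 1 and 2, at 2.34 and -0.33 in control and 0.81 and -2.32 in recovery plants. In samples 3 and 4 they were close, at 2.13 and 2.30 in control and 1.12 and 1.08 in recovery plants. PSB27 did not pass with the pair as a fixed block (limma, adjusted p = 0.277), and with an estimated correlation within pairs or with pairs averaged its adjusted p was 0.654 to 0.924. LPA19 (AT1G05385), a relative of PSB27 needed for photosystem II to accumulate, had -0.44, -0.74 and -0.48. These signs depend on the scaling. Deposited LPA19 was 0.396 and 0.424 in control 1 and 2 against 0.444 and 0.514 in recovery 1 and 2. In samples 3 and 4 it was 0.963 and 0.862 against 0.444 and 0.454. In samples 5 and 6 it was 0.448 and 0.461 against 0.624 and 0.587. Deposited PSBY was higher in recovery plants in samples 5 and 6 alone, at 0.373 and 0.170 against 0.519 and 0.264. Deposited PSB27 fell in sample 5 and rose in sample 6. Without samples 3 and 4 the difference of recovery and control was -0.0785 for PSBW, 0.11 for LHB1B2, -0.46 for PSBY, -1.20 for PSB27 and -0.46 for LPA19, and none passed (limma, adjusted p from 0.249 to 0.803). The interaction tests of PSBY, PSB27 and LPA19 gave limma adjusted p-values of 0.990, 0.883 and 0.515. Low values in control 3 and 4 were therefore not a feature of every photosystem gene measured. LPA19 had its 2 highest values in those samples, 0.02 and -0.13 on the log2 scale.

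**Figure D5:**
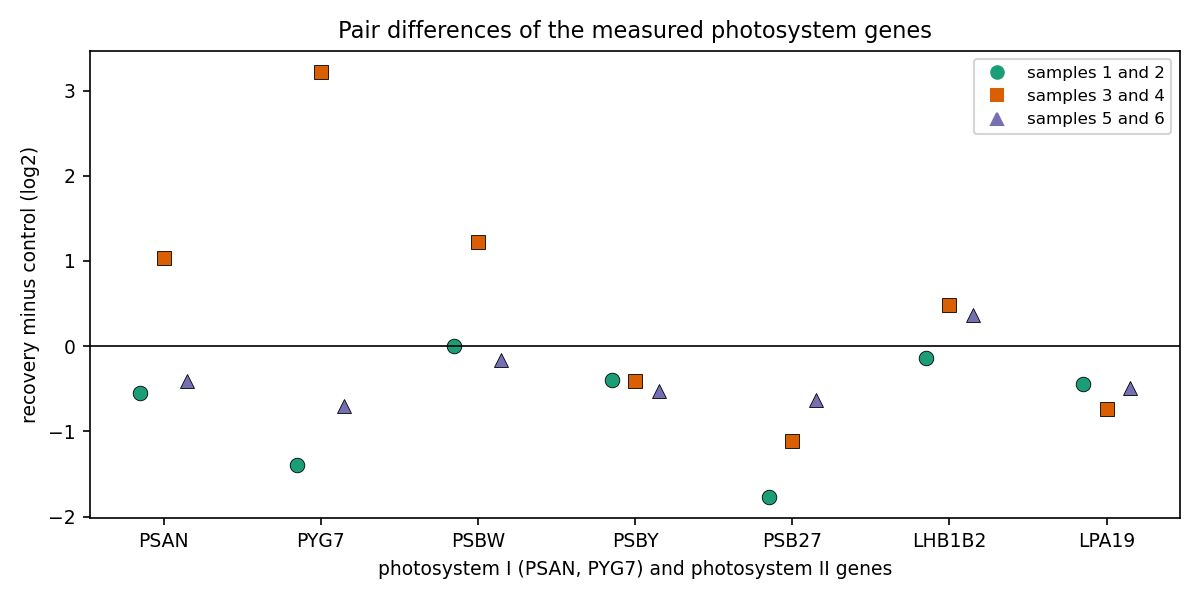
Recovery minus control of the quantile-normalised log2 values in each pair of samples for the 7 measured genes of the photosystem lists. PSAN, PYG7 and PSBW lie above 0 in samples 3 and 4 and at or below 0 in the other pairs, whereas PSBY, PSB27 and LPA19 lie below 0 in all 3 pairs.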

How the data were processed

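Values were taken from the deposited table of intensities on a linear scale; for array type, scanner, background correction and normalisation the sources used here name nothing. Groups and replicate numbers came from the sample titles. With limma 3.58.1 (R 4.3.3) the 3439 probes were quantile-normalised, values under the 5th percentile of positive values were set to it, log2 was taken and the 2 probes of 1 gene were averaged, which left 3438 features. Probes were named by gene number through the platform annotation and a RefSeq gene table (TAIR10.1); no build is named for the series, so no positions are given. That table lists PYG7 by its locus, AT1G22700, and no sequence of either gene was used here. Recovery was compared with control by lmFit and eBayes with no covariate, two-sided, with Benjamini-Hochberg adjustment over all features and a threshold of 0.05. The group by pair interaction was a moderated F test. Single values had exact permutation tests. Scripts were tested on simulated data.

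Genes named were PSAN, PYG7, list genes with a probe of their own and the 5 genes most correlated with each member. Members and lists, which were written from general knowledge, were chosen with earlier results of these data known. Deviations from the group mean correlated at 0.110 to 0.462 between control and recovery samples of the same number, and at -0.229 to 0.008 between those of other pairs. Each same-number value was over 0.1, so replicate numbers were taken to pair the samples, and the fits with the number as a block stand among the alternatives. No such value is given for the other number of the same pair, so pairing by number cannot be told from pairing by pair. Alternatives were other scalings, floors and filters, blocks for number or pair, and samples left out. No depth is known for arrays; their number limits the precision.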

Additional observations from a re-analysis of the deposited data

How the results depend on the processing

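None of the alternatives planned for the comparison of all 12 samples brought PSAN past the limma threshold, 1 brought PYG7 past it, that without samples 3 and 4, and the direction of the small PSAN difference of 0.03 was not stable. It was -0.0730 on the values as deposited, -0.0724 after cyclic loess, -0.63 after median centring and -0.48 without samples 3 and 4, with the same values in the exact permutation test, and -0.12 to 0.13 with 1 sample left out. It was 0.31 without samples 1 and 2 and 0.24 without samples 5 and 6. PYG7 was -1.05 without samples 3 and 4 (limma, adjusted p = 0.0433, with 0.0433 to 0.968 over its alternatives). With 1 sample left out PYG7 was -0.16 to 0.67, the lowest equally without control 3 or without control 4, which both stood at the floor. PYG7 was higher than its 0.37 without samples 1 and 2 (1.26), with the lower floor (1.17), without samples 5 and 6 (0.91) and as deposited (0.72), and lower after median centring (0.25), cyclic loess (0.08) and with a pseudocount (0.06). Under the replicate block the PSAN difference of 0.03 and the PYG7 difference of 0.37 had limma adjusted p-values of 0.974 and 0.814, and pairing changed neither call. Among the photosystem II genes, PSBW was -0.29 and LHB1B2 -0.53 after median centring, and PSBW was -0.0785 without samples 3 and 4. PSB27 passed with the replicate number as a block (limma, adjusted p = 0.0492) and LPA19 with the pair as a fixed block (limma, adjusted p = 0.0173). Both calls were lost with an estimated correlation within pairs or with pairs averaged (limma, adjusted p = 0.654 to 0.924 for PSB27 and 0.1004 to 0.814 for LPA19).

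Permutation tests of each gene without samples 3 and 4, and other settings combined with leaving them out, were chosen after the data were seen. There PSAN was -0.58 as deposited and -1.48 after median centring, both past the threshold, and PYG7 was -0.16 as deposited. PYG7 kept -1.05 but not its call with a lower floor, the replicate block or the pair as a random block, and ran from -1.27 to -0.86 with 1 more sample left out. The PYG7 difference in samples 5 and 6 was 0.31 as deposited. The change of PSAN minus that of PYG7 was 0.57 without samples 3 and 4, -0.42 there as deposited or after median centring, 0.57 with the replicate block (exact sign flips, p = 0.125, the smallest possible), and -0.60 to 0.15 over 12 samples with 1 left out, the highest without control 3. The interaction F without samples 3 and 4 was 0.28 for PSAN and 3.07 for PYG7, below the threshold, with one pair fewer and another number of terms. Under the other alternatives for the interaction both genes passed, PYG7 with an F of 10.5 at the lower floor. The cause of these shifts was not tested.

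The number of features called, 104, was 60 after cyclic loess, 69 with features above the floor in at least 6 samples, 425 with the pair as a fixed block, 3 with it as a random block and 0 with pairs averaged (limma; 203 at an unadjusted p under 0.05). It was 28 without samples 1 and 2, 416 without samples 3 and 4, 10 without samples 5 and 6 and 42 to 93 with 1 sample left out. Detection limits are unknown for these intensities, so a PYG7 value at the floor is a bound.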
